A study of Homo sapiens with 43 samples.

Results

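The TSC22 domain family was examined as a gene family in HMC3 cells, an immortalised human line distributed as microglia, the macrophages that live in the brain. The members were all the genes named TSC22D, and 4 were found among the 20052 genes of the count table: TSC22D1, TSC22D2, TSC22D3 and TSC22D4. They were taken by name, but the family and the gene lists used below were chosen with earlier results of these data known. TSC22D3 is better known as GILZ, the glucocorticoid-induced leucine zipper.

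The flasks fell into 17 groups, all of HMC3 cells at the same passage and without a genetic change. Cells received dexamethasone (0.01 or 1 µM) or hydrocortisone (0.01 or 10 µM) for 3 days, with 3 libraries for each dose. Each of the 4 doses had its own ethanol vehicle group of 3 libraries on day 3, and 3 further libraries came from cells in medium alone. For day 6, cells were moved into hormone-free medium for 3 more days of washout, which gave 3 libraries for each hormone dose and 1 library for each of the 4 vehicles. The 43 libraries were made from total RNA of separate flasks of a single cell line, those of day 6 reseeded from cells of day 3, so p-values measure the spread between flasks and not between donors.

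TSC22 proteins share a short conserved TSC box followed by a leucine zipper, through which they pair with themselves and with one another. The family makes short forms that are little more than this domain, and long forms with extended amino-terminal stretches that bind the pseudokinase NRBP1 and WNK kinases, which govern cell volume. The GILZ forms of TSC22D3 are made when the glucocorticoid receptor binds DNA near the gene, and GILZ binds NF-κB and AP-1 subunits and limits inflammatory gene expression in macrophages and microglia. TSC22D1 was first isolated as a gene induced by TGF-β.

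TSC22D3 (ENSG00000157514) lies on the minus strand of chromosome X at 107713221 to 107777342 (GRCh38, GENCODE v29), with 17 annotated transcripts. TSC22D1 (ENSG00000102804) lies on the minus strand of chromosome 13 at 44432143 to 44577147. TSC22D2 (ENSG00000196428) lies on the plus strand of chromosome 3 at 150408335 to 150466431. TSC22D4 (ENSG00000166925) lies on the minus strand of chromosome 7 at 100463359 to 100479279. All are protein-coding genes, and all 4 passed the low-count filter. Reads were counted over whole genes, so the long and short forms of a member cannot be told apart here. The antisense genes TSC22D1-AS1 and TSC22D2-AS1 were not analysed here. SPACDR shares 391 exon bases with TSC22D4 on the same strand and had 82 counts over all libraries.

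The promoter of TSC22D3 is shown because TSC22D3 was the member that rose most with hormone. The RefSeq promoter table of build GRCh38.p14 held 4 start sites of TSC22D3, 5 of TSC22D1 and 1 of TSC22D4. The 250 bases before the TSC22D3 start site that held the most motif matches were at chrX:107717063-107717312 and read, 5′ to 3′ on the minus strand, with the motif matches in capitals:
TSC22D3: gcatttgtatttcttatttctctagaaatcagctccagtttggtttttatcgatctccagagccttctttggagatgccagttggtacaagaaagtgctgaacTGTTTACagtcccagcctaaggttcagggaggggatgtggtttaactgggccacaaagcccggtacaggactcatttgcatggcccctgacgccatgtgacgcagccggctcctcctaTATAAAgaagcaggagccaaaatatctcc
The first stretch of capitals is the reverse complement of the forkhead motif GTAAACA, at positions -147 to -141 from the start site, and the second is the TATA box motif TATAAA at -29 to -24. On both strands, GTAAACA was found in 2.98% and TATAAA in 10.7% of the 35116 upstream windows of the table. The glucocorticoid receptor motif AGAACA was found in 12.4% of windows, in none of the 4 TSC22D3 windows and in 1 window of TSC22D1. An inverted repeat of AGAACA with 3 bases between the copies was found in 0.00285% of windows and in no window of a member. Such matches describe letters in a window, and their absence says nothing about binding at other distances.

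Depth ran from 7638840 to 24426643 counts per library, of which 9.90% to 94.9% were ribosomal RNA, and 7 libraries lay above 75%. TSC22D3 had between 8 and 1383 counts in a library, TSC22D1 between 56 and 823, TSC22D2 between 61 and 1237 and TSC22D4 between 22 and 352. Of 12 microglial markers 4 were in the table, and the others were not analysed here. Per 1000000 non-ribosomal counts (CPM, counts scaled to that total), CSF1R ran from 0 to 0.95, TREM2 from 0 to 1.4 and CD68 from 0 to 0.696, so these defining markers were at or near 0, while MERTK ran from 6.62 to 15.7. The table held 8 of 10 fibroblast and pericyte markers, of which 6 had a median of at least 1 on the same scale. The summed level of the 8 ran from 3790 to 5910, led by COL1A1 with 1030 to 3130. ACTA2 ran from 0.184 to 2.51 (median 0.923) and DCN from 0 to 5.23 (median 0.41), so these 2 were also near 0.

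TSC22D3 rose after 3 days in 1 µM dexamethasone, 0.01 µM dexamethasone and 10 µM hydrocortisone, by 15.9-fold, 8.27-fold and 9.59-fold, while TSC22D2 fell in the same 3 treatments. TSC22D1 and TSC22D4 passed the test in none of the day 3 comparisons. No member passed the test in 0.01 µM hydrocortisone. Levels below are CPM of the TMM-scaled library unless another scale is named. In bulk RNA, a change in the share of cells that express a gene and a change in RNA per cell cannot be told apart.

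With 1 µM dexamethasone, a synthetic glucocorticoid, TSC22D3 had 48.6, 56.7 and 52.6 CPM on day 3, against 2.85, 2.63 and 4.41 CPM in its own vehicle. The lowest treated library lay far above the highest vehicle library. The log2 fold change was 3.99 (SE 0.24, 95% interval 3.50 to 4.49, adjusted p = 1.9e-12 by edgeR's quasi-likelihood test with Benjamini-Hochberg adjustment) and was the rank 14 rise of all genes tested. In this comparison 22.6% of the 16816 tested genes were called, 1739 higher and 2065 lower.

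With 0.01 µM dexamethasone, TSC22D3 had 29.2, 33.6 and 35.8 CPM, against 3.88, 3.54 and 4.45 CPM in its own vehicle. The groups did not overlap, and the log2 fold change was 3.05 (SE 0.24, 95% interval 2.55 to 3.55, edgeR adjusted p = 6.06e-10), where 14% of genes were called. With 10 µM hydrocortisone, the pharmaceutical name of the human stress hormone cortisol, TSC22D3 had 32.4, 43.2 and 38.6 CPM, against 4.35, 3.40 and 4.17 CPM in its own vehicle. Again no treated library came near a vehicle library, with a log2 fold change of 3.26 (SE 0.24, 95% interval 2.76 to 3.76, edgeR adjusted p = 1.57e-10), where 13.1% of genes were called.

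With 0.01 µM hydrocortisone, TSC22D3 had 4.18, 3.55 and 3.93 CPM, against 3.12, 3.86 and 3.86 CPM in its own vehicle. These values overlapped. The log2 difference was 0.11 with a 95% interval of -0.39 to 0.61 (edgeR adjusted p = 1). Of all genes 0% were called in this comparison, 398 had an unadjusted p under 0.05, and DESeq2 called 0 as well.

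**Figure D1:**
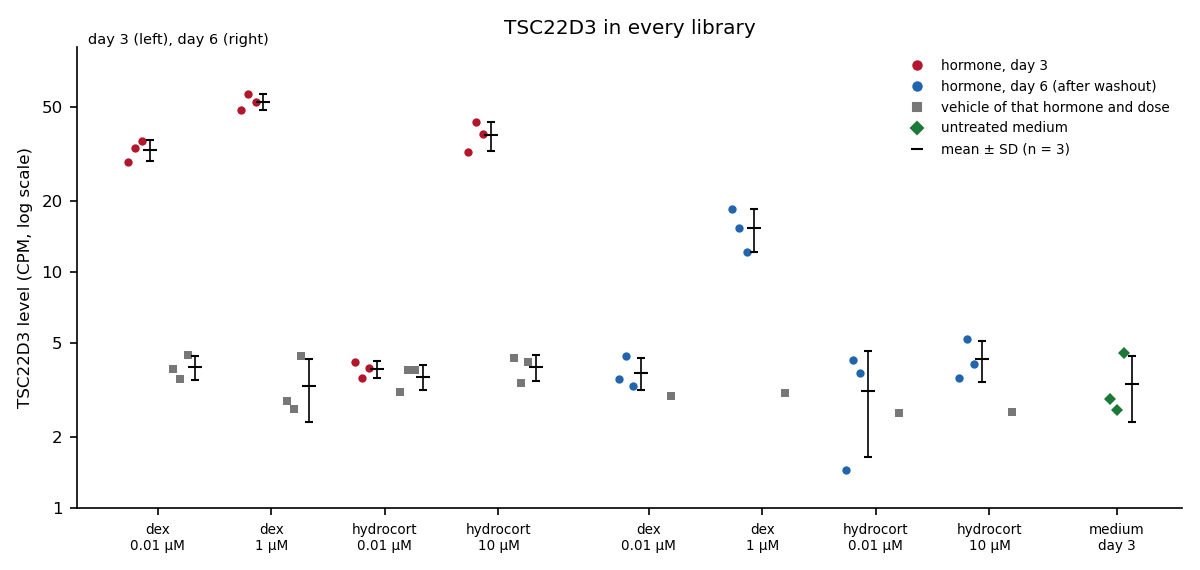
TSC22D3 level of every library in CPM on a log axis, by group, with each hormone dose left of its vehicle, day 3 before day 6 and medium last; bars show the mean and SD of groups of 3. The 3 responding treatments of day 3 lie between 29.2 and 56.7 CPM, and after washout 1 µM dexamethasone lies at 12.2 to 18.6 CPM, against 2.55 to 3.08 CPM in the day 6 vehicles.

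The plot of TSC22D3 levels shows how narrow the range without active hormone was. Over the 12 vehicle libraries of day 3 it ran from 2.63 to 4.45 CPM with a median of 3.86, and the 3 libraries in medium alone had 2.90, 2.62 and 4.57 CPM. The 12 vehicle libraries together and the medium differed by a log2 value of 0.13 (edgeR adjusted p = 0.996). That comparison had 0% of genes called, 903 with an unadjusted p under 0.05, and 0 by DESeq2.

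TSC22D2, a member known mainly for its long, NRBP1-binding form, moved the other way. With 1 µM dexamethasone it had 24.0, 22.4 and 22.7 CPM, against 45.7, 39.0 and 35.2 CPM in its own vehicle. The groups stood well apart, and TSC22D2 fell by 0.80 on the log2 scale (SE 0.10, edgeR adjusted p = 1.63e-08). With 0.01 µM dexamethasone it had 29.7, 24.2 and 29.9 CPM, against 42.0, 45.1 and 39.0 CPM in its own vehicle. It fell by 0.59 there (SE 0.10, edgeR adjusted p = 1.51e-05), again without overlap.

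With 10 µM hydrocortisone TSC22D2 had 24.2, 26.4 and 28.8 CPM, against 32.9, 36.9 and 43.1 CPM in its own vehicle. It fell by 0.51 on the log2 scale (SE 0.10, edgeR adjusted p = 0.000158), and the highest treated library stayed below the lowest vehicle library. With 0.01 µM hydrocortisone it had 36.6, 39.3 and 44.8 CPM, against 40.7, 40.1 and 39.3 CPM in its own vehicle. The log2 difference was 0.01 and the values overlapped (edgeR adjusted p = 1).

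TSC22D1, the founding member of the family, averaged 25.4 ± 3.97 CPM with 1 µM dexamethasone and 25.8 ± 1.13 CPM in its own vehicle (SD, n = 3 each). Its 17 group means ran from 24.0 to 30.9 CPM, the highest being a single vehicle library of day 6. TSC22D4, a member with long forms that also bind NRBP1 and which in mouse liver has been tied to lipid and insulin metabolism, averaged 11.1 ± 1.25 CPM with 1 µM dexamethasone and 9.76 ± 0.576 CPM in its own vehicle (SD, n = 3 each). TSC22D1 and TSC22D4 passed edgeR's threshold in none of the 18 comparisons of the design, which does not show that they stayed the same. Against all 12 vehicle libraries in place of its own 3, TSC22D4 was higher in 1 µM dexamethasone by 0.29 on the log2 scale (edgeR adjusted p = 0.0174).

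**Figure D2:**
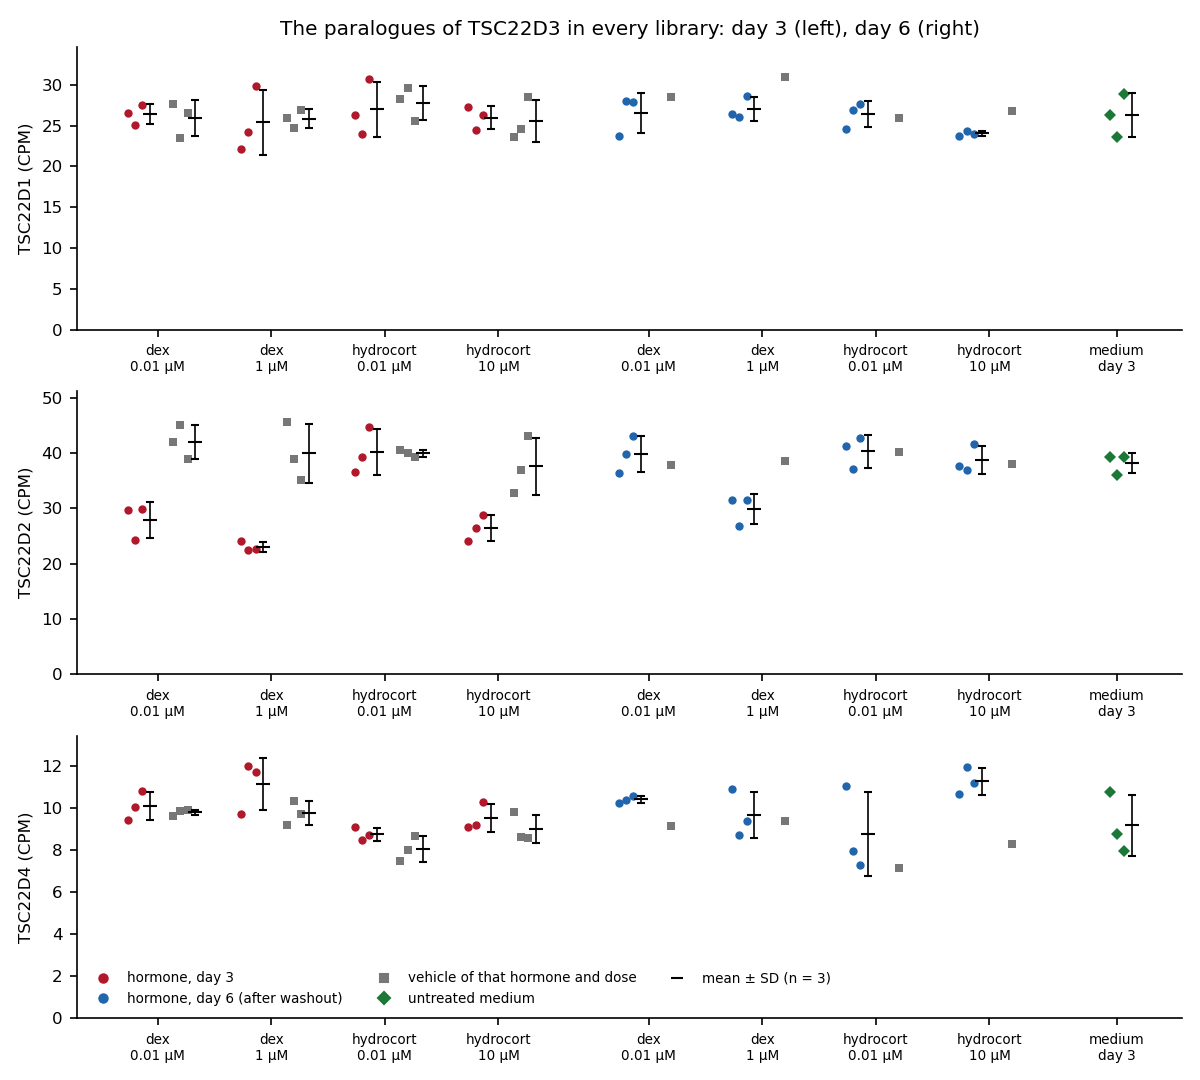
Levels of TSC22D1, TSC22D2 and TSC22D4 in every library in CPM on a linear axis from 0, by group, with each hormone dose left of its vehicle; bars show the mean and SD of groups of 3. TSC22D2 is lowest in 1 µM dexamethasone on day 3, at 22.4 to 24.0 CPM, and TSC22D1 group means stay between 24.0 and 30.9 CPM.

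The plot of the other members beside TSC22D3 shows a change in the make-up of the family. Per kilobase of merged exons, the 12 vehicle libraries of day 3 averaged 3.06 ± 0.23 CPM per kb for TSC22D1, 3.42 ± 0.325 for TSC22D2, 0.778 ± 0.128 for TSC22D3 and 2.46 ± 0.236 for TSC22D4 (SD, n = 12). TSC22D3 was thus the least abundant member per length without hormone. With 1 µM dexamethasone TSC22D3 averaged 11.04 ± 0.847 and TSC22D2 1.97 ± 0.0748 CPM per kb (SD, n = 3). TSC22D1 averaged 2.96 ± 0.462 and TSC22D4 3.00 ± 0.338 CPM per kb in these libraries. Per length TSC22D3 was then the highest member and TSC22D2 the lowest. The lengths are those of all annotated exons, and the forms in use are not known, so the order of transcript numbers may differ. TSC22D3 averaged 6.90 ± 0.707 CPM per kb with 0.01 µM dexamethasone and 7.99 ± 1.13 with 10 µM hydrocortisone (SD, n = 3 each).

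As a share of the counts of the 4 genes in a library, TSC22D3 took 45.03% to 49.2% with 1 µM dexamethasone (median 46.5%), 30.8% to 36.1% with 0.01 µM dexamethasone and 34.9% to 41.8% with 10 µM hydrocortisone, against 3.40% to 6.15% over the 12 vehicle libraries (median 4.70%). With 0.01 µM hydrocortisone it took 4.46% to 5.49%, within the range of the vehicles. A share within a library does not depend on the library's size or on its ribosomal RNA.

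The log2 ratio of TSC22D3 to the summed other 3 members was tested over libraries. It averaged -0.179 ± 0.121 with 1 µM dexamethasone, -0.972 ± 0.179 with 0.01 µM dexamethasone and -0.711 ± 0.216 with 10 µM hydrocortisone (SD, n = 3 each), against -4.35 ± 0.287 in the vehicles (SD, n = 12). The differences were 4.17, 3.37 and 3.63, each with p = 0.0044 in a two-sided exact permutation test, the smallest value 3 against 12 libraries can give, and 0.0117 after adjustment over 8 tests. With 0.01 µM hydrocortisone the difference was 0.07 (exact permutation p = 0.752, adjusted 0.859). Without the libraries above 75% ribosomal RNA, or without any 1 treated library, fewer libraries remained and none of the 3 tests passed. The differences without the ribosomal libraries were 4.27, 3.40 and 3.68, with adjusted exact permutation p of 0.0808, 0.0808 and 0.0559, and the adjusted p without a treated library was 0.0586.

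The balance of TSC22D2 and TSC22D1 also differed. There were 0.761 to 1.08 counts of TSC22D2 per count of TSC22D1 with 1 µM dexamethasone, 0.965 to 1.116 with 0.01 µM dexamethasone and 0.887 to 1.10 with 10 µM hydrocortisone, against 1.31 to 1.92 in the 12 vehicle libraries. None of the 9 treated libraries reached the lowest vehicle library. With 0.01 µM hydrocortisone the ratio was 1.39 to 1.64, inside the vehicle range. This ratio was described and not tested.

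**Figure D3:**
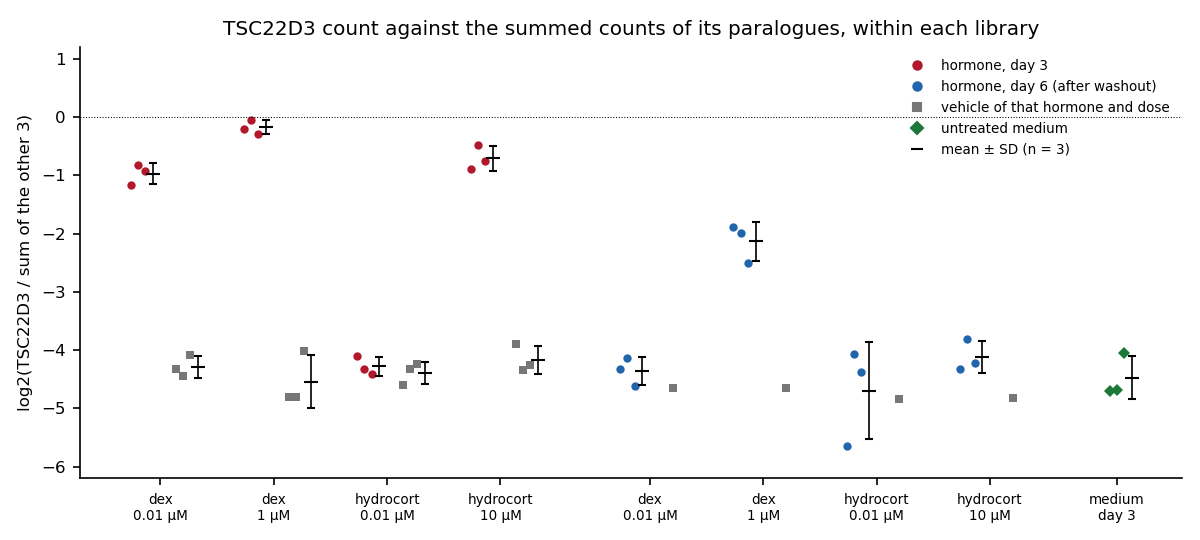
Log2 ratio of the TSC22D3 count to the summed counts of TSC22D1, TSC22D2 and TSC22D4 in every library, by group, with each hormone dose left of its vehicle and day 3 before day 6. The 1 µM dexamethasone libraries of day 3 average -0.179, near equal counts, and the 12 day 3 vehicles average -4.35.

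Dose was examined next. TSC22D3 was 0.94 higher on the log2 scale at 1 than at 0.01 µM dexamethasone after each vehicle was subtracted (95% interval 0.24 to 1.65), which did not pass the threshold (unadjusted p = 0.0106, edgeR adjusted p = 0.615). Its levels at the 2 doses did not overlap. The vehicle of 1 µM averaged 3.30 and that of 0.01 µM 3.96 CPM, and the doses compared directly differed by 0.68 (edgeR adjusted p = 0.305). For TSC22D2 the dexamethasone dose difference was -0.20 (95% interval -0.48 to 0.07, edgeR adjusted p = 0.88). Only 0.0476% of genes were called in this dose comparison.

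For hydrocortisone the dose difference was large. TSC22D3 was 3.15 higher on the log2 scale at 10 than at 0.01 µM (SE 0.35, edgeR adjusted p = 3.45e-07), and TSC22D2 was lower, with a difference of -0.52 (SE 0.14, edgeR adjusted p = 0.0182). In that comparison 4.09% of genes were called. The TSC22D2 call was lost without replicate 2 of 10 µM hydrocortisone (-0.46, adjusted p = 0.067), without replicate 3 of its vehicle (-0.41, adjusted p = 0.0786) and without replicate 4 of 0.01 µM hydrocortisone (-0.43, adjusted p = 0.0807), by edgeR. For TSC22D1 the dose difference was 0.06 (95% interval -0.21 to 0.34, edgeR adjusted p = 0.885).

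The compounds shared only the dose of 0.01 µM, so 1 pair was compared. Dexamethasone is a fluorinated and methylated relative of hydrocortisone with an added ring double bond, and is known as the more potent and longer-acting compound. At 0.01 µM, the vehicle-corrected effect on TSC22D3 was 2.94 higher for dexamethasone than for hydrocortisone (log2, SE 0.35, 95% interval 2.23 to 3.65, edgeR adjusted p = 1.45e-06). For TSC22D2 it was lower, at -0.60 (SE 0.14, edgeR adjusted p = 0.00439). Here 4.98% of genes were called. The higher doses were 1 µM dexamethasone and 10 µM hydrocortisone. They differ, so the TSC22D3 levels of 52.6 ± 4.04 CPM with 1 µM dexamethasone and 38.1 ± 5.39 CPM with 10 µM hydrocortisone (SD, n = 3 each) stand only side by side.

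**Figure D4:**
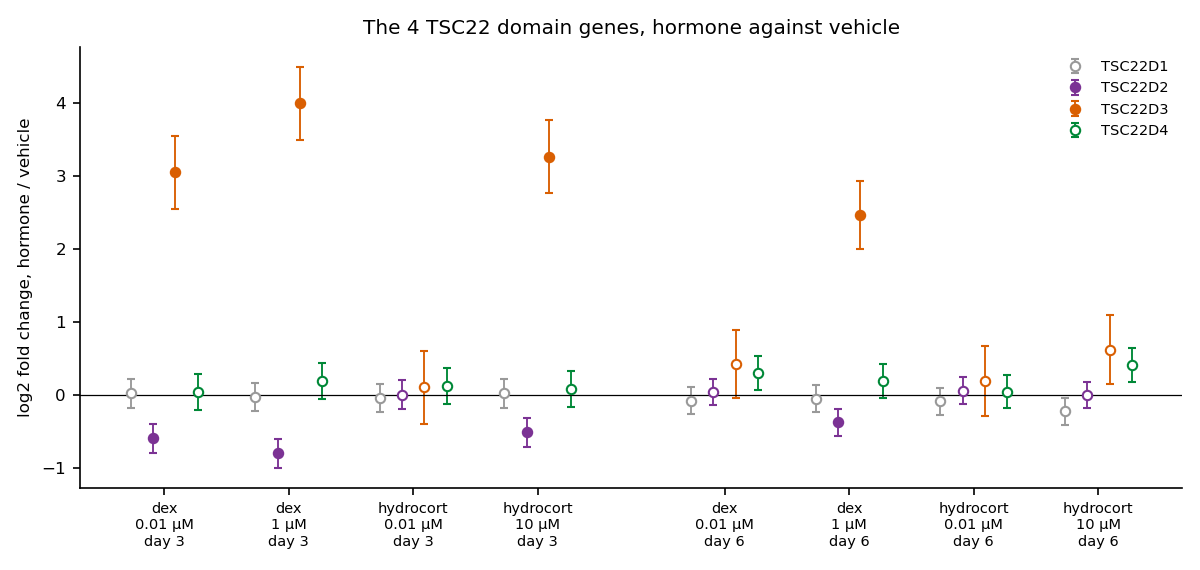
Log2 fold change of each member in each hormone treatment against vehicle on day 3 and day 6, with 95% intervals; filled points have an edgeR adjusted p under 0.05. TSC22D3 lies at 3.99, 3.05 and 3.26 in the 3 responding day 3 treatments and TSC22D2 at -0.80, -0.59 and -0.51, and on day 6 only 1 µM dexamethasone has filled points.

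After 3 days without hormone, TSC22D3 was still raised and TSC22D2 still lowered in cells that had received 1 µM dexamethasone. The plot of fold changes shows that no member passed the test on day 6 in the other 3 treatments. TSC22D3 had 18.6, 15.4 and 12.2 CPM after 1 µM dexamethasone, against 3.08, 2.99, 2.55 and 2.55 CPM in the 4 vehicle libraries of day 6. The lowest of these treated libraries was far above the highest vehicle, with a log2 fold change of 2.47 (SE 0.23, 95% interval 2.00 to 2.93, edgeR adjusted p = 5.67e-09), or 5.52-fold. In this comparison 10.2% of genes were called.

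TSC22D2 had 31.5, 26.8 and 31.5 CPM after 1 µM dexamethasone on day 6, against 37.8 to 40.2 CPM in the 4 vehicles. It fell by 0.37 on the log2 scale (SE 0.09, edgeR adjusted p = 0.00468), without overlap. Against the only library of its own vehicle the difference was also -0.37, but did not pass (edgeR adjusted p = 0.115), and without replicate 3 of 1 µM dexamethasone on day 6 it was -0.30 (edgeR adjusted p = 0.07). TSC22D2 per TSC22D1 count was 1.03 to 1.19 after 1 µM dexamethasone, against 1.25 to 1.55 in the vehicles.

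After 0.01 µM dexamethasone TSC22D3 had 3.52, 4.4 and 3.30 CPM on day 6, with a log2 difference from the vehicles of 0.43 (95% interval -0.04 to 0.90, edgeR adjusted p = 0.719), where 0.0833% of genes were called. After 10 µM hydrocortisone it had 3.55, 5.19 and 4.10 CPM, a difference of 0.62 (95% interval 0.15 to 1.09, unadjusted p = 0.0105, edgeR adjusted p = 0.243), where 0.892% of genes were called. Every library of these groups lay above all 4 vehicle libraries of day 6, although neither difference passed the threshold. The share of all genes with such an order was not counted. The 12 vehicle libraries of day 3 ran from 2.63 to 4.45 CPM, a range that holds these libraries except the 10 µM hydrocortisone library at 5.19 CPM. After 0.01 µM hydrocortisone TSC22D3 had 1.45, 4.24 and 3.74 CPM, a difference of 0.19 (95% interval -0.28 to 0.67, edgeR adjusted p = 0.834), where 0.0892% of genes were called. The library at 1.45 CPM held 8 counts of TSC22D3 and 76.8% ribosomal RNA, and without the libraries above 75% the difference was 0.57 (edgeR adjusted p = 0.376).

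Of the members, TSC22D4 came nearest to the threshold after 10 µM hydrocortisone on day 6. It had 10.65, 11.95 and 11.17 CPM, against 7.14 to 9.39 CPM in the 4 vehicles, without overlap. The log2 difference of 0.41 (SE 0.11) missed the threshold with an edgeR adjusted p of 0.0657, and DESeq2 gave 0.42 with an adjusted p of 0.0365. Without the libraries above 75% ribosomal RNA it was 0.47 (edgeR adjusted p = 0.0215). Of 16 alternatives 5 passed and 11 did not, among them all 7 with a library left out (0.33 to 0.46). TSC22D1 had its lowest group mean after 10 µM hydrocortisone on day 6, with 24.0 ± 0.32 CPM (SD, n = 3) against 28.04 ± 2.19 CPM (SD, n = 4) in the vehicles. It did not pass (log2 difference -0.22, edgeR adjusted p = 0.329). After 0.01 µM dexamethasone TSC22D4, at 10.25 to 10.57 CPM on day 6, also lay above all 4 vehicles without passing (log2 difference 0.30, edgeR adjusted p = 0.496). Here too the share of all genes with such an order was not counted.

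The log2 ratio of TSC22D3 to the other 3 members on day 6 averaged -2.13 ± 0.336 after 1 µM dexamethasone (SD, n = 3) and -4.74 ± 0.108 in the 4 vehicles (SD, n = 4). The difference of 2.61 had an exact permutation p of 0.0571, the smallest that 3 against 4 libraries allow, so this design cannot reach 0.05. TSC22D3 took 14.9% to 21.3% of the family's counts after 1 µM dexamethasone, against 3.36% to 3.81% in the vehicles. It took 3.89% to 5.31% after 0.01 µM dexamethasone and 4.70% to 6.62% after 10 µM hydrocortisone, where the differences in log2 ratio of 0.38 and 0.62 had the same smallest exact permutation p, adjusted to 0.0762 over 8 tests. After 0.01 µM hydrocortisone the difference in log2 ratio was 0.04 (exact permutation p = 0.971). Per kilobase TSC22D3 averaged 3.23 ± 0.677 CPM per kb after 1 µM dexamethasone on day 6 (SD, n = 3). In the same libraries TSC22D1 averaged 3.145, TSC22D2 2.56 and TSC22D4 2.60 CPM per kb. In the vehicles of that day TSC22D1 had 3.27, TSC22D2 3.31 and TSC22D3 0.585.

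The direct comparison of the dexamethasone doses on day 6 had 3.14% of genes called. TSC22D3 was 2.04 higher on the log2 scale after 1 than after 0.01 µM (SE 0.24, edgeR adjusted p = 2.5e-06), and TSC22D2 was lower, with a difference of -0.41 (SE 0.10, edgeR adjusted p = 0.00686). For TSC22D2 this was 29.9 ± 2.74 CPM after 1 µM and 39.8 ± 3.27 CPM after 0.01 µM (SD, n = 3 each). The TSC22D2 call was lost without replicate 3 of 1 µM (-0.34, edgeR adjusted p = 0.11) and without replicate 3 of 0.01 µM (-0.35, edgeR adjusted p = 0.0788).

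The change over washout, the day 6 effect minus the day 3 effect, was tested for each treatment. For TSC22D3 it was -1.36 after 1 µM dexamethasone (SE 0.30, edgeR adjusted p = 0.00964), where 1.68% of genes were called. Without replicate 4 of 1 µM dexamethasone on day 6 this was -1.22 (edgeR adjusted p = 0.0664). It was -2.72 after 0.01 µM dexamethasone (SE 0.30, edgeR adjusted p = 2.3e-07) and -2.74 after 10 µM hydrocortisone (SE 0.30, edgeR adjusted p = 2.54e-07), where 6.55% and 6.97% of genes were called. After 0.01 µM hydrocortisone it was 0.12 (edgeR adjusted p = 0.979), where 0.00595% of genes were called.

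For TSC22D2 the change over washout was positive, towards the vehicle level. It was 0.56 after 0.01 µM dexamethasone (SE 0.12, edgeR adjusted p = 0.00147) and 0.60 after 10 µM hydrocortisone (SE 0.12, edgeR adjusted p = 0.000651). After 1 µM dexamethasone it was 0.42 (SE 0.12) and missed the threshold (edgeR adjusted p = 0.056), although DESeq2 gave 0.45 with an adjusted p of 0.0328. In the vehicles, TSC22D3 on day 6 differed from day 3 by -0.41 on the log2 scale (edgeR adjusted p = 0.381), where 0.505% of genes were called.

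The order of the group means gives the same picture. For TSC22D3 the highest group was 1 µM dexamethasone on day 3, which overlapped with no other group. Next came 10 µM hydrocortisone and 0.01 µM dexamethasone on day 3, whose libraries overlapped, and then 1 µM dexamethasone on day 6, apart from its neighbours. All later neighbours with 3 libraries overlapped. For TSC22D2 the lowest group was 1 µM dexamethasone on day 3, followed upwards by 10 µM hydrocortisone and 0.01 µM dexamethasone on day 3 and 1 µM dexamethasone on day 6, whose libraries overlapped in that order. All libraries of the other groups lay above these 4 groups.

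Partners of the family were read from lists of known genes, and those said to rise or fall passed edgeR's threshold. Of 16 kinases, scaffolds and cotransporters around WNK and NRBP, to which the long TSC22 proteins bind, 2 rose and 1 fell with 1 µM dexamethasone, with a median log2 fold change of 0.0795 beside 0.016 over all genes. In 0.01 µM dexamethasone 1 rose and 1 fell, with 10 µM hydrocortisone 2 and 1, and with 0.01 µM hydrocortisone 0 and 0. Over all genes 22.6%, 14%, 13.1% and 0% were called in these 4 comparisons. The list's called share of 3 in 16 was not above that of all genes with 1 µM dexamethasone, but was above it with 10 µM hydrocortisone. This difference was not tested, and a list of 16 genes is too short to read it. NRBP2, a pseudokinase paralogue of NRBP1, rose with 28.5 ± 0.918 CPM in 1 µM dexamethasone and 16.7 ± 3.12 CPM in its own vehicle (SD, n = 3 each; log2 fold change 0.77). WNK4, a kinase that regulates salt transport, averaged 1.55 ± 0.53 CPM in 1 µM dexamethasone and 4.55 ± 0.509 CPM in its own vehicle (SD, n = 3 each), and fell by 1.55 on the log2 scale. SLC12A4, a potassium-chloride cotransporter, rose by 0.45. WNK4 also fell with 0.01 µM dexamethasone, by 1.66, and with 10 µM hydrocortisone, by 1.33, and on day 6 after 1 µM dexamethasone it fell by 1.25.

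Of 18 partners and downstream genes of GILZ, 16 were tested, and 5 rose and 3 fell with 1 µM dexamethasone, with a median log2 fold change of 0.194 beside 0.016 over all genes. With 0.01 µM dexamethasone it was also 5 and 3, with 10 µM hydrocortisone 3 and 3, and with 0.01 µM hydrocortisone 0 and 0, beside 22.6%, 14%, 13.1% and 0% of all genes called. NFKBIA, the inhibitor that holds NF-κB in the cytoplasm, rose with 26.4 ± 1.36 CPM in 1 µM dexamethasone and 9.12 ± 0.259 CPM in its own vehicle (SD, n = 3 each; log2 fold change 1.53). MDM2, the ubiquitin ligase of p53, rose by 1.00. NEDD4L, the ubiquitin ligase of the epithelial sodium channel, averaged 20.97 ± 1.99 CPM in 1 µM dexamethasone and 53.6 ± 7.49 CPM in its own vehicle (SD, n = 3 each), and fell by 1.35. ANXA1, a glucocorticoid-regulated phospholipid-binding protein, fell by 0.78, and PPARG, whose transcription GILZ is known to repress in mouse, fell by 0.93.

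SCNN1A, the alpha subunit of the epithelial sodium channel, which GILZ is known to raise at the cell surface in kidney cells, was almost silent without hormone. Its libraries held 51 to 112 counts with 1 µM dexamethasone, against 0 to 4 in its own vehicle, and 65 to 119 with 10 µM hydrocortisone, against 0 to 4 in its own vehicle. With 0.01 µM dexamethasone they held 10 to 56 counts, against 0 to 7 in its own vehicle. On day 6 after 1 µM dexamethasone they still held 29 to 39, against 0 to 2 in the 4 vehicles.

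Of 14 genes of TGF-β signalling, the pathway in which TSC22D1 was found, 5 rose and 1 fell with 1 µM dexamethasone, with a median log2 fold change of 0.327 beside 0.016 over all genes. In 0.01 µM dexamethasone 3 rose, with 10 µM hydrocortisone 4 and with 0.01 µM hydrocortisone 0, while none fell. All genes had 22.6%, 14%, 13.1% and 0% called in these comparisons. The receptors TGFBR1 and TGFBR2 rose by 0.41 and 0.76, and the ligand TGFB2 fell by 0.61. TSC22D1 did not pass the test in any of these comparisons.

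TSC22D3 was set beside other known targets of the glucocorticoid receptor. Of 16 on the list 14 were tested, and 10 rose and 0 fell with 1 µM dexamethasone, with a median log2 fold change of 1.19 beside 0.016 over all genes. With 0.01 µM dexamethasone 8 rose, with 10 µM hydrocortisone 9 and with 0.01 µM hydrocortisone 0, while none fell. Called shares over all genes were 10.3% higher and 12.3% lower for 1 µM dexamethasone, 6.15% and 7.84% for 0.01 µM dexamethasone, and 5.58% and 7.5% for 10 µM hydrocortisone. With 1 µM dexamethasone, CRISPLD2, a secreted glucocorticoid-induced protein, had a log2 fold change of 3.36 beside 3.99 for TSC22D3. ANGPTL4, a secreted inhibitor of lipoprotein lipase named here after its values were seen, was the 1 target above TSC22D3, at 4.19 (SE 0.65, edgeR adjusted p = 5.48e-06). Its libraries held 25 to 80 counts with 1 µM dexamethasone on day 3, against 0 to 5 in its own vehicle, and 28 to 83 on day 6, against 0 to 5 in the 4 vehicles. Day 3 effects were taken against the own vehicle and day 6 effects against the mean of the 4 vehicles, so their references differ. The day 6 effect of 1 µM dexamethasone as a share of its day 3 effect, both on the log2 scale, was 61.7% for TSC22D3. It was 62.5% for FKBP5, the receptor's co-chaperone, 62.9% for the transcription factor KLF9, 77.6% for the clock gene PER1 and 88.1% for CRISPLD2. It was 45.3% for the transcription factor CEBPD and 43.6% for the insulin receptor substrate IRS2. CDKN1A had 87.0%, MT2A 47.3% and DUSP1 53.0%, although DUSP1 did not pass on day 6 (edgeR adjusted p = 0.207). For ANGPTL4 the share was 112.4%, from a day 6 value of 4.71 that has no interval because 1 of the 4 vehicle libraries held 0 counts. That library also raises the day 6 value, so the share does not show that the effect grew. These shares are descriptions and were not tested against one another.

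**Figure D5:**
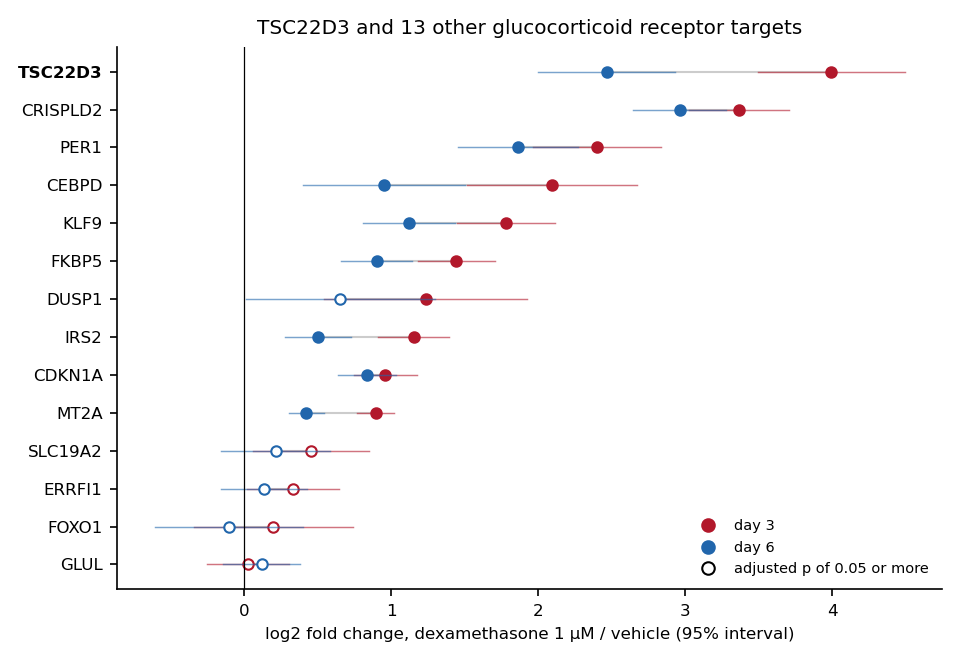
Log2 fold change with 1 µM dexamethasone on day 3 and on day 6 for TSC22D3 and 13 other known targets of the glucocorticoid receptor, with 95% intervals. ANGPTL4, at 4.19 on day 3 and 4.71 on day 6, is not drawn because its day 6 value has no interval and is raised by a vehicle library with 0 counts. Of the 14 genes drawn TSC22D3 is highest on day 3, at 3.99, and on day 6 it has 2.47 beside 2.96 for CRISPLD2.

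The receptor itself, NR3C1, fell with 53.1 ± 2.34 CPM in 1 µM dexamethasone and 74.8 ± 3.41 CPM in its own vehicle (SD, n = 3 each), by 0.49 on the log2 scale. ABCB1, a drug efflux pump that exports dexamethasone, rose by 1.45. These were the 2 genes tested of 5 for receptors and hormone handling. Of 4 astrocyte markers 2 were in the table, SLC1A3 and ALDH1L1, and GFAP and AQP4 were not analysed here. In CPM of the non-ribosomal counts, the summed level of the 2 had a median of 13.7 in the day 3 libraries of all hormone doses and 7.61 in the vehicle libraries. This sum ran from 8.36 to 16.5 with hormone and from 6.84 to 9.59 with vehicle, so the ranges overlapped, and it was not tested. The part of this sum in the changes of TSC22D3 and TSC22D2 was not tested either.

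The genes most like TSC22D3 were found by Pearson's r of the mean log2 CPM over the 17 groups, among 11670 genes. They were TNS3 (0.989), FAT4 (0.985), FKBP5 (0.983), ABCA8 (0.983), CDHR1 (0.982) and CERNA2 (0.98). ABCA8, a lipid transporter, averaged 117.6 ± 3.59 CPM with 1 µM dexamethasone and 12.2 ± 0.627 CPM in its own vehicle (SD, n = 3 each). FAT4, an atypical cadherin, averaged 47.1 ± 3.35 CPM with 1 µM dexamethasone and 9.80 ± 0.876 CPM in its own vehicle (SD, n = 3 each). TNS3, a focal adhesion protein, averaged 52.2 ± 4.73 CPM with 1 µM dexamethasone and 24.1 ± 3.35 CPM in its own vehicle (SD, n = 3 each). Those most like TSC22D2 were ST6GAL2 (0.982), ADAMTSL1 (0.976) and HAS2 (0.973). HAS2, which makes hyaluronan, averaged 2.09 ± 0.356 CPM with 1 µM dexamethasone and 23.9 ± 4.46 CPM in its own vehicle (SD, n = 3 each). Between members r was -0.969 for TSC22D3 with TSC22D2, 0.5 for TSC22D3 with TSC22D4 and -0.251 for TSC22D3 with TSC22D1. The groups share treatments and a scaling, so these values are descriptions.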

How the data were processed

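Total RNA of 43 HMC3 libraries was made into stranded libraries and read as paired ends, per the labels' protocols. The authors deposited raw counts for each Ensembl gene, without normalization. STAR, featureCounts, Subread, FastQC and GRCh38 are named in the submitters' processing notes; not given in the sources used here were their versions and settings, and whether counting used strand. Reads of overlapping genes can therefore not always be told apart.

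Symbols came from a current name table for 19978 of 20052 genes and from GENCODE v29 for 70. Library sizes include ribosomal RNA genes. No library repeated another (chi-square per degree of freedom 3.01 to 12.7 over 39 pairs of the same group).

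Counts were fitted with edgeR 4.0.16 (R 4.3.3) by glmQLFit (robust, legacy option off) and glmQLFTest with TMM scaling and filterByExpr (minimum count 10, minimum total 15), which left 16816 genes. All libraries entered 1 fit with 17 group coefficients and 26 residual degrees of freedom. The 4 day 6 vehicles of 1 library are assumed to vary like other groups. P-values were adjusted by Benjamini-Hochberg over all genes, with a threshold of 0.05. On day 3 a dose was set against its own vehicle, and on day 6 against the mean of 4 vehicle libraries. Dose and compound differences on day 3 are differences of vehicle-corrected effects. Washout changes use the mean of all vehicles of each day.

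The ratio of TSC22D3 to the other members used counts plus 0.5 and an exact permutation test. List genes named were at most 3 per list, direction and day 3 comparison with the smallest p. Among the receptor targets, all that rose with 1 µM dexamethasone on day 3 were instead named with their day 6 share. Likeness genes were the 6 or 3 with the highest r. Alternatives were DESeq2 1.42.0, RLE scaling, no filter, other vehicles, a replicate block, no ribosomal RNA genes, no libraries above 75% ribosomal RNA and each library left out. The legacy edgeR fit, the direct comparison of hormone groups and a ratio without TSC22D2 were chosen after seeing the data. The edgeR fit and the permutation test were tested on simulated data. The members and lists were chosen with earlier results of these data known. Precision follows the counts per library. Sequences are from RefSeq, build GRCh38.p14.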

Additional observations from a re-analysis of the deposited data

Results flagged for a closer look

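Differences between doses, between compounds or between days passed the test of the difference itself for TSC22D3 and TSC22D2, by edgeR's quasi-likelihood test. TSC22D3 had a dose difference of 3.15 (log2) for hydrocortisone, 10 over 0.01 µM, and TSC22D2 one of -0.52. At 0.01 µM, the effect of dexamethasone minus that of hydrocortisone was 2.94 for TSC22D3 and -0.60 for TSC22D2. The effect of day 6 minus that of day 3 for TSC22D3 was -1.36 after 1 µM dexamethasone, -2.72 after 0.01 µM dexamethasone and -2.74 after 10 µM hydrocortisone. For TSC22D2 it was 0.56 after 0.01 µM dexamethasone and 0.60 after 10 µM hydrocortisone. In the 4 vehicle libraries of day 6, no member had a library flagged by a rule on the gap at either end as a share of the range. With 4 libraries, each of a different vehicle, that rule flags only extreme gaps.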

How the results depend on the processing

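Each member had 367 values under other settings, and none reversed a call. TSC22D1 kept its side of the threshold in all 367, TSC22D3 in 366, TSC22D4 in 361 and TSC22D2 in 351. For TSC22D3 the washout change after 1 µM dexamethasone lay between -1.52 and -1.22 when a library was left out, and lost its call without replicate 4 of day 6. For TSC22D2 with 1 µM dexamethasone on day 6, the value was -0.37 against its own vehicle library (adjusted p 0.115) and -0.41 to -0.30 with a library left out. Its hydrocortisone dose difference was -0.61 to -0.41 and its direct dexamethasone dose difference on day 6 -0.47 to -0.34 with a library left out. Its washout change after 1 µM dexamethasone passed with DESeq2 (0.45), the legacy edgeR fit chosen after seeing the data (0.44), RLE factors (0.44) and without ribosomal RNA genes (0.44), and lay at 0.38 to 0.50 with a library left out. After 10 µM hydrocortisone it was 0.54 against own vehicles (adjusted p 0.12). The causes were not tested.

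The ratio of TSC22D3 to the other members on day 3, for 1 µM dexamethasone, 0.01 µM dexamethasone and 10 µM hydrocortisone, differed by 4.36, 3.31 and 3.45 from own vehicles alone, where 3 against 3 libraries cannot go below an exact p of 0.10. Without libraries above 75% ribosomal RNA it differed by 4.27, 3.40 and 3.68, and with a library left out by 4.10 to 4.22, 3.30 to 3.47 and 3.52 to 3.73.

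With the replicate block, TSC22D3 had 3.94, 3.05 and 3.16 and TSC22D2 -0.79, -0.59 and -0.53 in the 3 active treatments of day 3, and no call of a member changed. Counts of genes called did move with the block, that of the vehicles over time from 85 to 110. Deviations of same-numbered libraries from their group means correlated at r from -0.081 to 0.041 between hormone and own vehicle on day 3 (median -0.006, other numbers 0.020). Between day 6 and day 3 of a treatment they lay from -0.074 to 0.10 (median 0.057, other numbers -0.023). In 10 µM hydrocortisone (0.066 to 0.10) and 0.01 µM hydrocortisone (0.048 to 0.062) every day 6 library correlated best with its own number, which is a hint of pairing from the data. In the dexamethasone doses this did not hold for every library. The labels do not say what the numbers mark, so the numbers are not taken to pair flasks, but pairing is not excluded. The washout tests treat the flasks of day 3 and day 6 as independent.

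Counts of genes called depended on the setting. Under settings other than leaving out 1 library the count lay, with the reported count in brackets, at 713 to 3633 for 0.01 µM dexamethasone (2353) and 1637 to 4066 for 10 µM hydrocortisone (2199) on day 3, and at 793 to 2311 for 1 µM dexamethasone (1708), 4 to 18 for 0.01 µM dexamethasone (14), 3 to 306 for 10 µM hydrocortisone (150) and 8 to 31 for 0.01 µM hydrocortisone (15) on day 6. For 0.01 µM hydrocortisone on day 3 it was 0 to 3 (0). It was 4 to 65 for the dexamethasone dose (8), 618 to 2493 for the hydrocortisone dose (688) and 695 to 2409 for the compounds (838), 647 to 1120 and 265 to 1485 for the washout changes of 0.01 µM dexamethasone (1101) and 10 µM hydrocortisone (1172), and 37 to 110 for the vehicles over time (85). With a library left out, the direct dexamethasone dose count on day 6 (528) was as low as 293 (without replicate 3 of 1 µM), and that of the washout change after 1 µM dexamethasone (283) 159 (without replicate 4 of day 6). For 10 µM hydrocortisone it was as low as 1396 on day 3 (without replicate 4) and 34 on day 6 (without replicate 3), for 1 µM dexamethasone on day 6 1064 (without replicate 2), and for 0.01 µM dexamethasone on day 6 0 (without replicate 2). For 0.01 µM hydrocortisone on day 6 it lay between 1 and 85, for its washout change (1) between 0 and 4, for the dexamethasone dose between 4 and 18, for the vehicles over time between 17 and 114, and for vehicles against medium (0) between 0 and 3.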

Other observations

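Genes most like the other members over the 17 group means were ATP2A2, a calcium pump of the endoplasmic reticulum, and CCDC14 for TSC22D1 (r = 0.836 and 0.804), after the pseudogene EEF1A1P25 (0.867), whose reads may be shared with near-identical copies. For TSC22D4 they were C1orf122 (0.869), C19orf25 (0.863) and AGPAT2, an enzyme of phospholipid synthesis (0.855). TSC22D1 and TSC22D2 had r = 0.189 between them, TSC22D2 and TSC22D4 -0.444, and TSC22D1 and TSC22D4 -0.31. These are descriptions over groups that share one scaling.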
